A study of Homo sapiens with 24 samples.

Results

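The genes described here lie in 1 stretch of the short arm of human chromosome 20, interspersed with unlisted genes, and most of them had lower signals in an SLFN11 knockout line than in the cells it was made from. They are a list of 60 genes, running in chromosome order from SOX12 to ZNF133, of which 56 were measured among 17687 genes in all. FKBP1A, NOP56, UBOX5 and FASTKD5 were listed but are not named in the array annotation used here. The genes were chosen by the measured KO minus parental differences of these same arrays, so the difference between the lines is given below as a description with no test. The list was worded as running between CSNK2A1 and ZNF133, yet by the gene order of the reference 4 of its genes, SOX12, NRSN2, RBCK1 and TBC1D20, lie nearer the chromosome end than CSNK2A1. The genes with a mean log2 signal above 6 over all arrays are called expressed (30 of the 56), and the other 26 are called dim.

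The study used ES8, an established human Ewing sarcoma cell line. The knockout line, called KO here, is ES8-1F2, a derivative of ES8 in which the human SLFN11 gene was knocked out with CRISPR/Cas9, and its counterpart is the parental ES8 line. Each line was exposed to 2 Gy or 0 Gy of gamma radiation and RNA was taken 24 h or 4 h later, in 3 replicates per line, dose and time, so that 12 KO arrays stand against 12 parental arrays in 4 conditions. All cells grew in the same serum-supplemented medium, and the labels do not state if replicates came from separate cultures, so each p-value reflects variation between these arrays that may be technical. Because KO is a single derivative, loss of SLFN11 and any other difference of that line from its parent cannot be told apart. RNA was measured and DNA copy number was not. In RNA from whole cultures, fewer cells of a kind and less RNA per cell also cannot be told apart.

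Ewing sarcoma is a bone and soft tissue tumour that carries a fusion of EWSR1 with an ETS family gene, most often FLI1, and SLFN11, of the Schlafen family, is known to block replication in cells with damaged DNA. The listed genes share an address and not a pathway. Neighbouring genes on a chromosome arm mostly have promoters of their own, although some pairs are arranged head to head and share the DNA between their start sites. Their products range from spliceosome subunits and mitochondrial enzymes to Notch and BMP ligands.

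Promoter sequences are shown for 4 genes, chosen after the values were seen, because they stand for the range of what was found. TRMT6 and ESF1 each begin a head-to-head pair in which both genes were lower in KO cells, FLRT3 had one of the lowest KO signals relative to the parental cells, and CPXM1 was the expressed listed gene that was higher. Each sequence is from RefSeq on GRCh38.p14 and holds 250 bases before and 50 bases after the annotated start, on the minus strand of chromosome 20, 5′ to 3′. Capitals mark matches, on either strand, to 4 motifs searched as exact letters. The ETS family motif was CCGGAAG. The motif of the factor NF-Y was CCAAT. The motif of SP1 was GGGCGG, and that of the TATA box was TATAAA.
TRMT6 (chr20:5950484-5950783): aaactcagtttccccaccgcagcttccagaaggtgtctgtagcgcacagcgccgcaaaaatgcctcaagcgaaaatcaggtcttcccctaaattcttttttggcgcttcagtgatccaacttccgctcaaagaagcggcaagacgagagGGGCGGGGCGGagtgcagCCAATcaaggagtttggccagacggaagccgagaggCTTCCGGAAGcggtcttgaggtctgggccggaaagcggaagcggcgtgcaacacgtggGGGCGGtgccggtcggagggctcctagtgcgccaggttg
ESF1 (chr20:13784870-13785169): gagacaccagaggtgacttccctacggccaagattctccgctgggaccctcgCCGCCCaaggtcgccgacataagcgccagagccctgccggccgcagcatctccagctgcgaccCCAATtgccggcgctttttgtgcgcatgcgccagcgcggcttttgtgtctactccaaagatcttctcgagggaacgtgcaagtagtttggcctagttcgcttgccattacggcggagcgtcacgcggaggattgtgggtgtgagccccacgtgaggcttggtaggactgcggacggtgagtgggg
FLRT3 (chr20:14337563-14337862): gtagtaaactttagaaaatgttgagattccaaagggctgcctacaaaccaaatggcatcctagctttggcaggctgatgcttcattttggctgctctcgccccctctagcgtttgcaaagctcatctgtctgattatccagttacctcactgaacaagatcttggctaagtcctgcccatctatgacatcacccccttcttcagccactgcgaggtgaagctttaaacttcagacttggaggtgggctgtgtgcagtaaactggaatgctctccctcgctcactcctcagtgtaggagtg
CPXM1 (chr20:2800578-2800877): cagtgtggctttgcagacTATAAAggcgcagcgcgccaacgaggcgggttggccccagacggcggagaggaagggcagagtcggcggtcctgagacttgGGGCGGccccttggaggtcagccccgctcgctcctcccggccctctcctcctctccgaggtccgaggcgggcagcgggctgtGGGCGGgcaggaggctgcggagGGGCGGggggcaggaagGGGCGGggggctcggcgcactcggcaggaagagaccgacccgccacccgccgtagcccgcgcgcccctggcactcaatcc
The TRMT6 window held 2 overlapping ETS matches, 1 NF-Y match and 3 SP1 matches, and the ESF1 window held 1 NF-Y and 1 SP1 match. The FLRT3 window held none of the 4 motifs and the CPXM1 window held 4 SP1 matches and 1 TATA match. The 4 windows held 24, 27, 4 and 31 CpG dinucleotides in the order shown. Promoter windows were found for 43 of the 56 measured listed genes. Among the 26 expressed ones with a window, the ETS motif occurred in 34.6%, NF-Y in 42.3%, SP1 in 73.1% and TATA in 3.85%. Among windows of the same length for all 5898 expressed genes with one, the shares were 22.4%, 38.9%, 71.4% and 5.66%. A match is a run of letters and not a measured binding site.

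SLFN11, on chromosome 17, checks the line labels. Its lowest, median and highest log2 signals were 6.33, 6.97 and 7.07 in KO cells, against 8.03, 8.30 and 8.63 in parental cells, a difference of -1.47 (SE 0.07) with no overlap and with every KO array above background. All values here are log2 signals, so a difference of -1 is a KO level of 50% of the parental level, and SE is the standard error of the difference in the fit over all arrays. Of 10 Ewing sarcoma genes fixed as markers, 9 were measured and 7 were expressed, including CD99 and NKX2-2. The list also held NR0B1, BCL11B and PAPPA, which were dim or not measured. Measured markers of blood cells and of endothelial cells were all dim. PDGFRA and KRT8 were the expressed ones among fibroblast and epithelial markers. The mean log2 signal of the Ewing sarcoma markers on each array was 7.62 to 7.81 in KO cells and 7.46 to 7.74 in parental cells. Within a group, Pearson correlations between arrays ran from 0.985 to 0.993 across genes, and between groups from 0.971 to 0.994, and genes are not independent replicates. The 2 arrays of parental replicate 2 after 2 Gy had narrow signal ranges (interquartile ranges over the arrays ran from 3.28 to 3.62). The closing section also gives the numbers of genes passing and the medians after 2 Gy without these 2 arrays. Differences of single genes are not given without them. Signals at or below 3.46 to 3.81, the 95th percentile of 612 negative control probe sets on each array, are called background.

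Across the 30 expressed listed genes the median difference, KO minus parental, was -0.74, which is a KO level of 0.60 times the parental one. The middle part of these genes was tightly placed, with quartiles of -0.83 and -0.65, and the ends were SLC23A2 at -2.21 and CPXM1 at 0.44. In 29 of the 30 the mean difference was negative, and the same number was negative in each of the 4 conditions. In 27 of the 30 (90.0%) every KO array lay below every parental array, a pattern found in 3.86% of all 6997 expressed genes and in 2.43% of all genes. These genes were listed for being lower, so nothing is read from that contrast. The median of all expressed genes was 0.01. Among all 56 measured listed genes, which passed through no filter on low values, the median was -0.71, 53 were negative and 31 had no overlap between the lines. The 53 include CHGB, GPCPD1 and SNPH, whose signals were at background on nearly all arrays and whose sign is not a measurement.

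**Figure D1:**
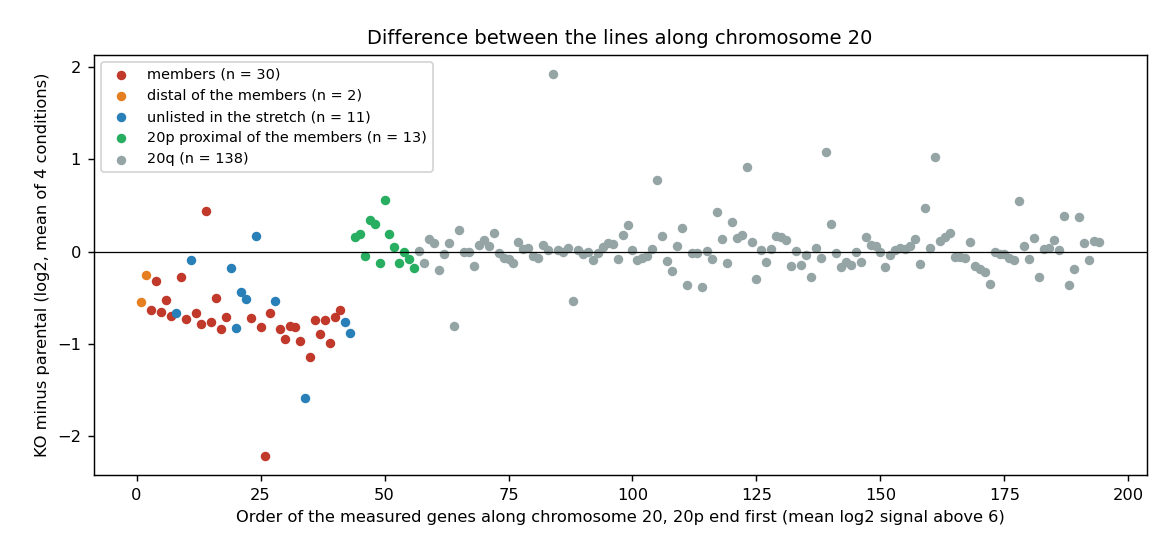
Difference between KO and parental cells (log2, mean of 4 conditions) for each expressed gene of chromosome 20, in chromosome order from the end of the short arm, with 1 point per gene coloured by position. Expressed listed genes lie mostly between -1.14 and -0.27 with SLC23A2 at -2.21 and CPXM1 at 0.44, unlisted genes of the same stretch have a median of -0.54, and the 13 genes of the short arm on the side toward the centromere have a median of 0.05. The 2 genes on the side of the chromosome end lie at -0.54 and -0.25.

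The position of the shift can be followed gene by gene. By order, the first 10 expressed listed genes, NRSN2 to CPXM1, had a median difference of -0.64, the next 10, PCED1A to TRMT6, had -0.79, and the last 10, MCM8 to RRBP1, had -0.81. All KO arrays lay below all parental arrays for 7, 10 and 10 genes of these sets. The Spearman correlation of the difference with chromosome order was -0.56 over the 30 genes, while that with the mean level was 0.07. These are descriptions over genes that share the same 24 arrays.

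The listed genes do not fill the stretch. It holds 111 measured genes, of which 55 are unlisted, and 11 of those are expressed. The 11 had a median difference of -0.54, with 10 negative and 7 without overlap. The 44 dim unlisted genes had a median of -0.09, with 1 without overlap (2.27%), and all 55 unlisted genes had a median of -0.10. SLX4IP, an interactor of the SLX4 nuclease scaffold, had lowest, median and highest signals of 5.96, 6.19 and 6.73 in KO cells, against 7.27, 7.85 and 8.19 in parental cells, a difference of -1.59 (SE 0.09). MGME1, a mitochondrial exonuclease, differed by -0.88 (SE 0.07), ADISSP by -0.83 (SE 0.06) and SNX5, an endosomal sorting nexin, by -0.77 (SE 0.04). PCNA, the replication sliding clamp, was named for its place in a head-to-head pair and differed by -0.54 (SE 0.04). The 4 at the other end were CDC25B, a phosphatase that activates cyclin-dependent kinases, at -0.44 (SE 0.06), SIGLEC1 at -0.17 (SE 0.08), TGM6 at -0.09 (SE 0.09) and ADRA1D at 0.16 (SE 0.08). The first of these had no overlap between the lines and the other 3 overlapped. Toward the chromosome end, before SOX12, 2 genes were expressed, C20orf96 at -0.54 (SE 0.07) and ZCCHC3 at -0.25 (SE 0.06), and both overlapped. On the other side the nearest expressed genes beyond ZNF133 were POLR3F, an RNA polymerase III subunit, at 0.16 (SE 0.06), SEC23B, a COPII coat protein, at 0.19 (SE 0.05) and DTD1 at -0.05 (SE 0.05). The centromere was taken as the widest gap between the starts of measured genes. Over the 13 expressed genes between ZNF133 and the centromere the median was 0.05 and 6 were negative. None had all KO arrays below all parental arrays. The 138 expressed genes of the long arm had a median of 0.01, with 1 such gene.

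Head-to-head pairs lie within the stretch. There were 7 pairs of measured genes with opposite strands and start sites within 1000 bases, and in 4 of them both genes were expressed. In each of these 4 both differences were negative. So were the differences of 29 of 30 expressed listed genes and 10 of 11 expressed unlisted genes of the stretch. Nothing is therefore read from the pairing. In 2 pairs both genes are listed: ESF1 with NDUFAF5, whose starts are 109 bases apart, and TRMT6 with MCM8, 119 bases apart. ESF1 differed by -0.89 and NDUFAF5 by -0.74, and TRMT6 differed by -0.95 and MCM8 by -0.80. The unlisted pair SNX5 and MGME1 had differences of -0.77 and -0.88. In the pair of PCNA with the listed CDS2 the differences were -0.54 and -0.84.

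**Figure D2:**
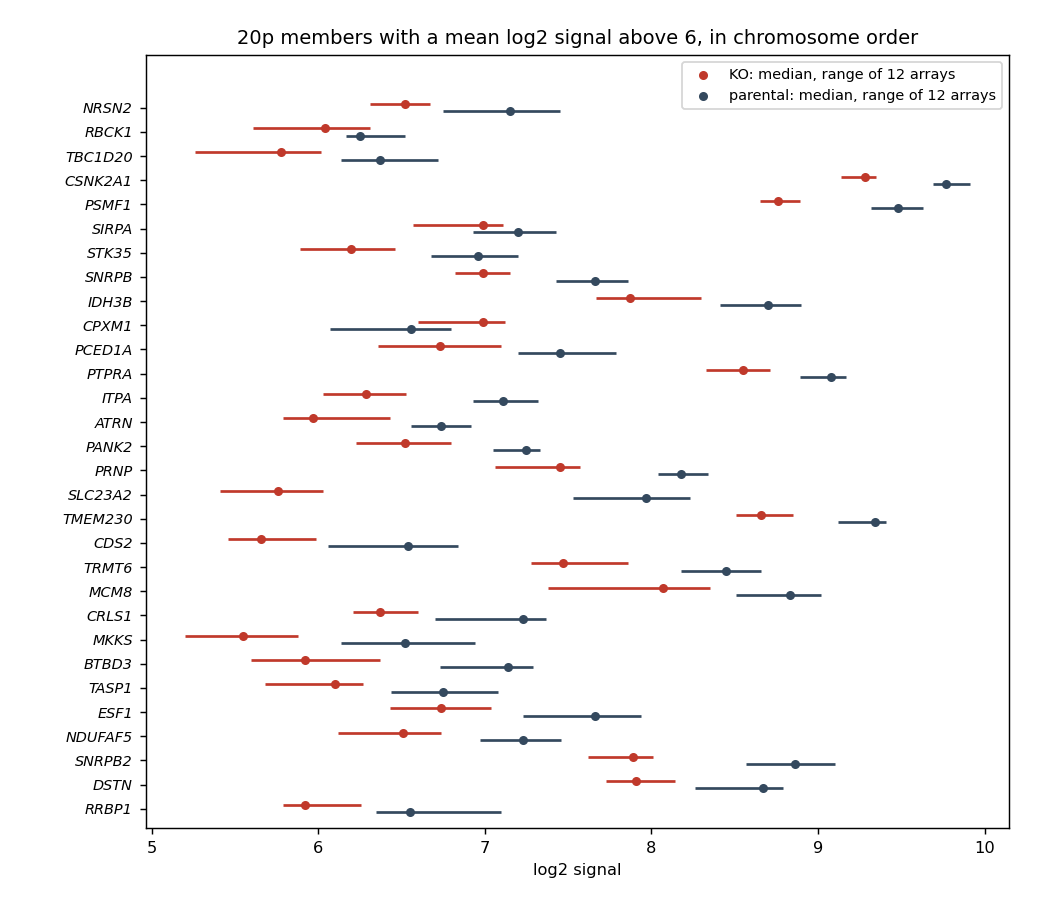
Log2 signal of the 30 expressed listed genes in chromosome order, with KO (red, upper) and parental (blue, lower) given as the median (point) and the range (line) of 12 arrays each. The 2 cell lines do not overlap except in RBCK1, SIRPA and CPXM1, and CPXM1 is the gene whose KO median is the higher.

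The splicing and RNA genes had the lowest median of the groups of at least 3 expressed genes, -0.92 over 4 genes, all without overlap between the lines. SNRPB2 codes for a protein of the U2 small nuclear ribonucleoprotein, which recognises the branch point of introns. SNRPB2 signals in the KO line were 8.01, 7.97 and 7.94 at 4 h without irradiation, 7.75, 7.96 and 7.98 at 4 h after 2 Gy, 7.62, 7.75 and 8.0 at 24 h without irradiation and 7.71, 7.62 and 7.85 at 24 h after 2 Gy. Those of SNRPB2 in the parental line were 9.08, 8.81 and 9.10 at 4 h without irradiation, 8.87, 8.64 and 8.88 at 4 h after 2 Gy, 8.77, 8.85 and 8.88 at 24 h without irradiation and 8.87, 8.57 and 8.75 at 24 h after 2 Gy. The lines were fully apart in every condition, with a difference of -0.99 (SE 0.05), a KO level 0.502 times the parental one. TRMT6 is the partner subunit of the enzyme that methylates adenine in transfer RNA. TRMT6 signals in the KO line were 7.56, 7.49 and 7.71 at 4 h without irradiation, 7.38, 7.53 and 7.86 at 4 h after 2 Gy, 7.42, 7.28 and 7.57 at 24 h without irradiation and 7.28, 7.32 and 7.44 at 24 h after 2 Gy. Those of TRMT6 in the parental line were 8.54, 8.42 and 8.66 at 4 h without irradiation, 8.33, 8.18 and 8.54 at 4 h after 2 Gy, 8.47, 8.38 and 8.65 at 24 h without irradiation and 8.33, 8.20 and 8.56 at 24 h after 2 Gy. The highest KO array lay under the lowest parental array and the difference was -0.95 (SE 0.06). ESF1, whose yeast counterpart acts in the processing of ribosomal RNA, has the promoter shown above. ESF1 signals in the KO line were 7.04, 6.77 and 6.69 at 4 h without irradiation, 6.90, 6.51 and 6.74 at 4 h after 2 Gy, 6.78, 6.43 and 6.79 at 24 h without irradiation and 6.74, 6.62 and 6.67 at 24 h after 2 Gy. Those of ESF1 in the parental line were 7.94, 7.66 and 7.70 at 4 h without irradiation, 7.65, 7.23 and 7.70 at 4 h after 2 Gy, 7.55, 7.67 and 7.66 at 24 h without irradiation and 7.60, 7.36 and 7.68 at 24 h after 2 Gy. Its difference was -0.89 (SE 0.07), also without overlap. SNRPB, a core Sm protein of the spliceosome, had lowest, median and highest signals of 6.82, 6.99 and 7.15 in KO cells, against 7.43, 7.66 and 7.86 in parental cells, a difference of -0.67 (SE 0.05).

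The mitochondria and metabolism genes had a median of -0.81 over 7 expressed genes, all without overlap. SLC23A2 stood apart from the rest. It codes for a sodium-dependent vitamin C transporter of the cell surface. SLC23A2 signals in the KO line were 5.87, 5.77 and 5.59 at 4 h without irradiation, 5.41, 5.75 and 5.92 at 4 h after 2 Gy, 6.03, 5.73 and 5.82 at 24 h without irradiation and 5.92, 5.64 and 5.60 at 24 h after 2 Gy. Those of SLC23A2 in the parental line were 7.76, 8.0 and 7.84 at 4 h without irradiation, 7.53, 7.93 and 7.85 at 4 h after 2 Gy, 7.79, 8.19 and 8.11 at 24 h without irradiation and 8.23, 8.15 and 8.19 at 24 h after 2 Gy. Every KO array was at least 1 log2 unit below every parental array. The difference was -2.21 (SE 0.07), a KO level 0.216 times the parental one, against a median of 0.60 for the expressed listed genes. The 6 others were closer together. CDS2, a CDP-diacylglycerol synthase of phospholipid synthesis, had lowest, median and highest signals of 5.46, 5.66 and 5.99 in KO cells, against 6.06, 6.54 and 6.84 in parental cells, a difference of -0.84 (SE 0.08). ITPA, which clears inosine triphosphate from the nucleotide pool, had 6.03, 6.29 and 6.53 in KO cells as lowest, median and highest, against 6.93, 7.11 and 7.32 in parental cells, and differed by -0.83 (SE 0.06). CRLS1, the cardiolipin synthase of mitochondria, had 6.21, 6.37 and 6.60 in KO cells and 6.70, 7.23 and 7.37 in parental cells on the same measures, a difference of -0.81 (SE 0.07). IDH3B is a subunit of the NAD-dependent isocitrate dehydrogenase of the citric acid cycle. IDH3B had lowest, median and highest signals of 7.67, 7.87 and 8.30 in KO cells, against 8.41, 8.70 and 8.90 in parental cells, a difference of -0.78 (SE 0.06). NDUFAF5, an assembly factor of respiratory complex I, differed by -0.74 (SE 0.06), and PANK2, a pantothenate kinase at the entry to coenzyme A synthesis, by -0.72 (SE 0.06). The dim genes of this group were SMOX, a spermine oxidase, at -0.55 (SE 0.09) and MRPS26, a protein of the mitochondrial ribosome, at -0.39 (SE 0.09), both with overlap, and GPCPD1, a glycerophosphocholine phosphodiesterase. GPCPD1 was at background on 12 KO and 10 parental arrays and so has no measured difference.

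The 3 expressed genes of DNA and transcription had a median of -0.80. BTBD3, a BTB-domain protein known for orienting dendrites in mouse cortex, had the second lowest difference of the expressed genes. BTBD3 signals in the KO line were 6.37, 5.91 and 5.92 at 4 h without irradiation, 5.60, 5.93 and 6.10 at 4 h after 2 Gy, 6.24, 5.74 and 6.16 at 24 h without irradiation and 5.71, 5.64 and 5.70 at 24 h after 2 Gy. Those of BTBD3 in the parental line were 7.21, 7.29 and 7.28 at 4 h without irradiation, 6.73, 6.75 and 7.05 at 4 h after 2 Gy, 7.23, 7.17 and 7.12 at 24 h without irradiation and 7.25, 6.81 and 6.81 at 24 h after 2 Gy. All KO arrays were below all parental arrays and the difference was -1.14 (SE 0.08). MCM8, a helicase subunit that works with MCM9 in homologous recombination, had lowest, median and highest signals of 7.38, 8.07 and 8.35 in KO cells, against 8.51, 8.83 and 9.02 in parental cells, a difference of -0.80 (SE 0.07). TASP1, the protease that cleaves the KMT2A methyltransferase, had lowest, median and highest signals of 5.68, 6.10 and 6.27 in KO cells, against 6.44, 6.75 and 7.08 in parental cells, a difference of -0.74 (SE 0.07). The dim genes SOX12, a SOX family transcription factor, at -0.60 (SE 0.08), CENPB, a protein that binds centromeric satellite DNA, at -0.55 (SE 0.10) and ZNF343, a zinc finger protein, at -0.67 (SE 0.11) each overlapped between the lines, and ZNF343 was at background on 6 KO arrays. ZNF133 differed by -0.30 (SE 0.10), with 7 KO arrays and 1 parental array at background, and EBF4, of the early B cell factor family, by -0.10 (SE 0.11), with 2 KO arrays at background.

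The membrane traffic, cytoskeleton and endoplasmic reticulum genes had a median of -0.67 over 5 expressed genes, all without overlap. MKKS, a chaperonin-like protein that helps to assemble the BBSome of cilia, had a mean of 6.08 and was the nearest listed gene above the level that separates expressed from dim. MKKS signals in the KO line were 5.80, 5.54 and 5.88 at 4 h without irradiation, 5.47, 5.33 and 5.87 at 4 h after 2 Gy, 5.84, 5.30 and 5.80 at 24 h without irradiation and 5.56, 5.20 and 5.51 at 24 h after 2 Gy. Those of MKKS in the parental line were 6.66, 6.53 and 6.86 at 4 h without irradiation, 6.48, 6.14 and 6.94 at 4 h after 2 Gy, 6.48, 6.45 and 6.76 at 24 h without irradiation and 6.51, 6.28 and 6.65 at 24 h after 2 Gy. Its difference was -0.97 (SE 0.09) with no overlap. DSTN, an actin-depolymerising factor, had lowest, median and highest signals of 7.73, 7.91 and 8.14 in KO cells, against 8.26, 8.67 and 8.79 in parental cells, a difference of -0.71 (SE 0.06). TMEM230, a membrane protein of vesicles, differed by -0.67 (SE 0.04), TBC1D20, which switches off the GTPase RAB1, by -0.65 (SE 0.08) and RRBP1, a ribosome-binding protein of the endoplasmic reticulum, by -0.63 (SE 0.08). Among the dim genes, TMX4, a thioredoxin-related membrane protein, had no overlap. TMX4 had lowest, median and highest signals of 3.89, 4.68 and 5.14 in KO cells, against 5.33, 5.95 and 6.08 in parental cells, a difference of -1.25 (SE 0.09). KIF16B, an endosomal kinesin, differed by -1.02 (SE 0.11) and SNAP25, a SNARE of synaptic vesicle fusion, by -0.82 (SE 0.12), both with overlap and SNAP25 at background on 1 KO array. AP5S1, a subunit of the AP-5 adaptor, differed by -0.49 (SE 0.07) and VPS16, the core of the HOPS and CORVET tethers, by -0.44 (SE 0.09). The remaining dim genes were SDCBP2 at -0.24 (SE 0.10), FERMT1, a kindlin that activates integrins, at 0.12 (SE 0.11), and SNPH, which anchors axonal mitochondria. SNPH was at background on 11 KO and 12 parental arrays and so has no measured difference. FERMT1 was thus slightly higher in KO cells, within the spread.

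The ligands, receptors and surface or secreted proteins differed in direction, with a median of -0.64 over 5 expressed genes and a range from PRNP to CPXM1. PRNP, the prion protein, had lowest, median and highest signals of 7.06, 7.45 and 7.57 in KO cells, against 8.04, 8.18 and 8.34 in parental cells, a difference of -0.82 (SE 0.06). ATRN, or attractin, had lowest, median and highest signals of 5.79, 5.97 and 6.43 in KO cells, against 6.56, 6.74 and 6.92 in parental cells, a difference of -0.71 (SE 0.07). NRSN2, a neurensin of vesicle membranes, had lowest, median and highest signals of 6.31, 6.52 and 6.67 in KO cells, against 6.75, 7.15 and 7.45 in parental cells, a difference of -0.64 (SE 0.06). None of these 3 overlapped. SIRPA, the receptor for CD47 on macrophages, was among the 4 with the least negative differences. SIRPA signals in the KO line were 6.69, 7.03 and 6.57 at 4 h without irradiation, 6.88, 7.11 and 6.99 at 4 h after 2 Gy, 7.02, 6.99 and 6.97 at 24 h without irradiation and 7.09, 7.0 and 7.04 at 24 h after 2 Gy. Those of SIRPA in the parental line were 7.19, 7.32 and 7.14 at 4 h without irradiation, 6.93, 7.15 and 7.18 at 4 h after 2 Gy, 7.09, 7.20 and 7.34 at 24 h without irradiation and 7.42, 7.43 and 7.22 at 24 h after 2 Gy. The lines overlapped, and the difference of SIRPA was -0.27 (SE 0.06). CPXM1, a carboxypeptidase-like secreted protein, went the other way. CPXM1 signals in the KO line were 7.0, 6.97 and 6.60 at 4 h without irradiation, 7.10, 7.05 and 7.12 at 4 h after 2 Gy, 6.75, 6.83 and 6.74 at 24 h without irradiation and 7.07, 6.87 and 7.10 at 24 h after 2 Gy. Those of CPXM1 in the parental line were 6.56, 6.80 and 6.25 at 4 h without irradiation, 6.73, 6.56 and 6.41 at 4 h after 2 Gy, 6.39, 6.34 and 6.07 at 24 h without irradiation and 6.57, 6.62 and 6.67 at 24 h after 2 Gy. Its KO signals were mostly the higher, with overlap, and its difference was 0.44 (SE 0.07), a KO level 1.35 times the parental one. Among the dim genes of this group FLRT3, a leucine-rich adhesion protein that binds latrophilins, lay low in KO cells. FLRT3 had lowest, median and highest signals of 3.33, 3.88 and 4.42 in KO cells, against 5.22, 6.06 and 6.38 in parental cells, a difference of -2.05 (SE 0.10). It had no overlap, and 1 KO array was at background. JAG1, a ligand of Notch receptors, had 4.10, 4.60 and 5.04 in KO cells as lowest, median and highest, against 4.87, 5.46 and 5.84 in parental cells, and differed by -0.82 (SE 0.10) with overlap. BMP2, a bone morphogenetic protein, differed by -0.15 (SE 0.11). CHGB, a chromogranin of secretory granules, was at background on all 24 arrays and so has no measured difference.

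The 3 expressed kinases, phosphatases and signalling genes had a median of -0.53. CSNK2A1, the catalytic alpha subunit of casein kinase 2, had lowest, median and highest signals of 9.14, 9.28 and 9.35 in KO cells, against 9.69, 9.77 and 9.91 in parental cells, a difference of -0.53 (SE 0.03). It was the brightest of the listed genes, and its lines were apart. STK35, a serine/threonine kinase of the nucleus, had lowest, median and highest signals of 5.89, 6.20 and 6.46 in KO cells, against 6.68, 6.96 and 7.20 in parental cells, a difference of -0.73 (SE 0.07). PTPRA is a receptor tyrosine phosphatase that can activate SRC. PTPRA signals in the KO line were 8.71, 8.56 and 8.47 at 4 h without irradiation, 8.61, 8.53 and 8.47 at 4 h after 2 Gy, 8.60, 8.58 and 8.48 at 24 h without irradiation and 8.63, 8.51 and 8.33 at 24 h after 2 Gy. Those of PTPRA in the parental line were 9.07, 9.10 and 8.97 at 4 h without irradiation, 9.14, 9.17 and 8.93 at 4 h after 2 Gy, 9.11, 9.10 and 8.89 at 24 h without irradiation and 8.93, 9.10 and 8.97 at 24 h after 2 Gy. Its lines did not overlap, and its difference of -0.50 (SE 0.04) was the smallest among the expressed listed genes without overlap. PLCB1, a phospholipase C beta, had a mean of 5.95 and was the nearest listed gene below the level of 6. PLCB1 signals in the KO line were 5.44, 5.49 and 5.18 at 4 h without irradiation, 5.74, 6.09 and 5.32 at 4 h after 2 Gy, 5.69, 5.64 and 5.69 at 24 h without irradiation and 5.80, 5.69 and 5.36 at 24 h after 2 Gy. Those of PLCB1 in the parental line were 6.11, 6.16 and 6.35 at 4 h without irradiation, 6.53, 5.94 and 6.30 at 4 h after 2 Gy, 6.36, 6.57 and 6.32 at 24 h without irradiation and 6.65, 6.19 and 6.27 at 24 h after 2 Gy. The lines overlapped on 1 KO array, and the difference was -0.72 (SE 0.09). PLCB4, of the same family, was at background on all 12 KO arrays and on 4 parental arrays. Its KO level was at least 1.18-fold lower, as a bound against background, with measured means of 2.86 in KO cells and 3.89 in parental cells. RASSF2, a Ras-association protein, differed by -1.04 (SE 0.11) with overlap and was at background on 4 KO arrays.

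The 4 measured ubiquitin and proteasome genes were all lower in KO cells, and 2 of them had no overlap. PSMF1, the proteasome regulator PI31, had lowest, median and highest signals of 8.65, 8.76 and 8.89 in KO cells, against 9.32, 9.48 and 9.63 in parental cells, a difference of -0.70 (SE 0.04). Its lines were apart. RBCK1, also called HOIL-1, is a subunit of the linear ubiquitin ligase complex. RBCK1 signals in the KO line were 5.67, 5.96 and 6.11 at 4 h without irradiation, 6.20, 6.13 and 6.13 at 4 h after 2 Gy, 5.79, 6.31 and 5.61 at 24 h without irradiation and 6.03, 6.04 and 5.73 at 24 h after 2 Gy. Those of RBCK1 in the parental line were 6.52, 6.20 and 6.23 at 4 h without irradiation, 6.22, 6.17 and 6.35 at 4 h after 2 Gy, 6.38, 6.23 and 6.48 at 24 h without irradiation and 6.33, 6.26 and 6.22 at 24 h after 2 Gy. The lines overlapped on 2 KO arrays, and the difference was -0.32 (SE 0.08). The dim RNF24, a RING finger protein, differed by -1.04 (SE 0.08) with no overlap, and DDRGK1, an adaptor for the ubiquitin-like modifier UFM1, by -0.94 (SE 0.09) with overlap. Of the genes in no group, PCED1A differed by -0.76 (SE 0.06) with no overlap and FAM110A by 0.27 (SE 0.09) with overlap. The 3 measured listed genes with a positive difference were thus CPXM1, FAM110A and FERMT1.

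**Figure D3:**
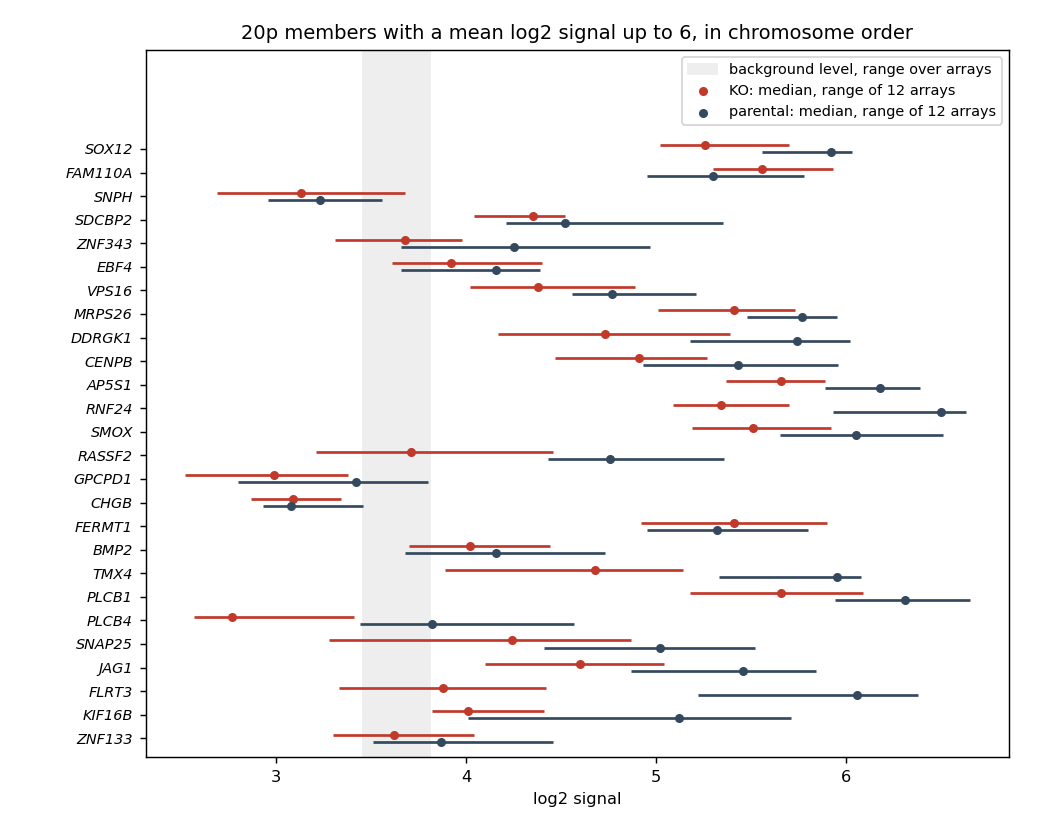
Log2 signal of the 26 dim listed genes in chromosome order, with KO (red, upper) and parental (blue, lower) given as the median (point) and the range (line) of 12 arrays each and the range of the background level in grey. RNF24, TMX4, PLCB4 and FLRT3 are the 4 without overlap, and SNPH, GPCPD1 and CHGB lie at background in most or all arrays.

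The dim genes had a median difference of -0.55, with 24 of 26 negative and 4 without overlap (15.4%), against 1.49% of all 10690 dim genes. The 44 dim genes of the stretch that were not listed had a median of -0.09, and the listed dim genes were chosen on this difference. Over all 56 genes the Spearman correlation of the mean level with the difference was -0.21. A summary per array was made from the expressed listed genes, which were also chosen on this difference, so it adds no separate support. For each array the median deviation of the 30 expressed genes from their own means was taken. Its lowest, median and highest values were -0.46, -0.37 and -0.25 over the KO arrays, against 0.24, 0.38 and 0.46 over the parental arrays. The same summary over all expressed genes ran from -0.03 to 0.05 in KO cells and from -0.06 to 0.04 in parental cells. The 2 parental arrays with the narrow signal range were the lowest of the parental set, at 0.25 and 0.24. They were also the lowest of all arrays on the summary over all expressed genes, at -0.064 and -0.061.

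**Figure D4:**
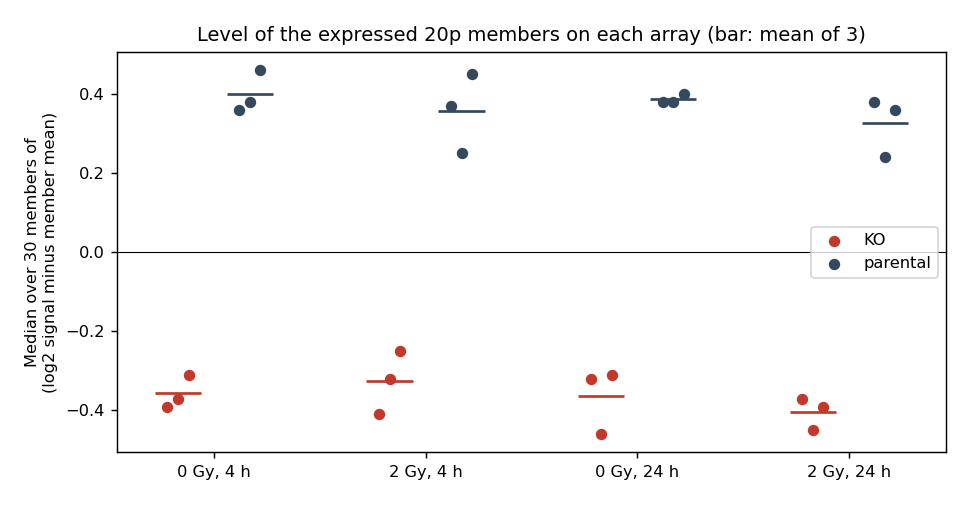
Median deviation of the 30 expressed listed genes from their own mean on each array (log2), by condition, with KO in red and left of parental in blue, points for arrays and bars for the mean of 3. All 12 KO arrays lie between -0.46 and -0.25 and all 12 parental arrays between 0.24 and 0.46, in every condition.

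The difference between the lines was of similar size in the 4 conditions. The median over the 30 expressed genes was -0.75 at 4 h without irradiation, -0.73 at 4 h after 2 Gy, -0.79 at 24 h without irradiation and -0.72 at 24 h after 2 Gy. SLC23A2 had differences of -2.13, -2.08, -2.17 and -2.47 in that order. Whether the difference varied over the conditions was tested with an F-test in limma, which does not use the mean difference that chose the genes. None of the 56 genes passed at an adjusted p below 0.05, and 0% of all genes did. Of the 56, only DDRGK1 (unadjusted p = 0.0339) and TMX4 (unadjusted p = 0.0371) were below 0.05 before adjustment in limma, and their limma adjusted p was 1. They are 3.57% of the 56, against 2.92% of all genes below 0.05. Their differences in the 4 conditions were -0.85, -0.52, -1.14 and -1.26 for DDRGK1 and -1.23, -0.91, -1.70 and -1.16 for TMX4.

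Irradiation and time are comparisons within a line that had no part in choosing the genes. After 2 Gy, at 4 h, 0 of the 56 genes passed in KO cells, where 0% of all genes passed, and 0 in parental cells, where 0.226% did. The numbers with an unadjusted p below 0.05 were 1 (1.79%) and 4 (7.14%), against 3.30% and 6.69% of all genes. BTBD3 in parental cells had signals of 6.73, 6.75 and 7.05 after 2 Gy, against 7.21, 7.29 and 7.28 without irradiation. All 3 irradiated arrays were below the others, and the difference was -0.42 (SE 0.15, unadjusted p = 0.009, adjusted p = 0.569). NRSN2 in parental cells had 7.29, 7.45 and 7.24 after 2 Gy and 6.97, 7.20 and 7.0 without irradiation, a difference of 0.27 (SE 0.12, unadjusted p = 0.0364, adjusted p = 0.719). In KO cells the lowest p belonged to SNPH, which is at background, and then to PLCB1 at 0.34 (SE 0.17, unadjusted p = 0.0543, adjusted p = 1).

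At 24 h after 2 Gy the counts were again 0 of 56 in KO cells (0% of all genes) and 0 of 56 in parental cells (0.0678% of all genes), with 2 and 2 at an unadjusted p below 0.05 (3.57% each, against 4.16% and 6.93% of all genes). BTBD3 in KO cells had 5.71, 5.64 and 5.70 after 2 Gy and 6.24, 5.74 and 6.16 without irradiation, a difference of -0.36 (SE 0.15, unadjusted p = 0.0227, adjusted p = 0.999). TASP1 in KO cells differed by -0.36 (SE 0.14, unadjusted p = 0.0135, adjusted p = 0.999). CPXM1 in parental cells had 6.57, 6.62 and 6.67 after 2 Gy and 6.39, 6.34 and 6.07 without irradiation, a difference of 0.35 (SE 0.13, unadjusted p = 0.0123, adjusted p = 0.526). The next lowest p in parental cells was that of PLCB4 (unadjusted p = 0.045, adjusted p = 0.706), whose arrays without irradiation were at background, so no size is given. The direct test of whether the response to irradiation differed between the lines called 0 of the 56 genes at 4 h and 0 at 24 h, with 0% of all genes at either time. The lowest p at 4 h was that of SIRPA, with a difference of responses, KO minus parental, of 0.36 (SE 0.16, unadjusted p = 0.0352, adjusted p = 1), followed by GPCPD1. At 24 h it was TMX4 at 0.55 (SE 0.26, unadjusted p = 0.0457, adjusted p = 1), followed by RRBP1 at 0.35 (SE 0.21, unadjusted p = 0.117, adjusted p = 1). Before adjustment 3 genes (5.36%) were below 0.05 at 4 h and 1 (1.79%) at 24 h, against 2.61% and 3.17% of all genes.

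Between 24 h and 4 h without irradiation, 0 of 56 genes passed in KO cells and 0 in parental cells, with 0% of all genes in either line and 3 (5.36%) and 4 (7.14%) of the 56 at an unadjusted p below 0.05, against 6.87% and 4.69% of all genes. TMX4 in KO cells had 4.25, 3.89 and 4.66 at 24 h and 4.84, 4.70 and 4.65 at 4 h, a difference of -0.46 (SE 0.19, unadjusted p = 0.0188, adjusted p = 0.643). MCM8 in KO cells differed by 0.33 (SE 0.14, unadjusted p = 0.0238, adjusted p = 0.657), RASSF2 in parental cells by 0.51 (SE 0.22, unadjusted p = 0.0267, adjusted p = 1) and JAG1 in parental cells by 0.43 (SE 0.20, unadjusted p = 0.036, adjusted p = 1). After 2 Gy the same comparison of times called 0 of 56 in KO cells (0.0452% of all genes) and 0 of 56 in parental cells (0.695% of all genes), with 5 and 7 at an unadjusted p below 0.05. These are 8.93% and 12.5% of the 56, against 7.94% and 8.80% of all genes. DDRGK1 in KO cells had 4.41, 4.52 and 4.52 at 24 h and 5.39, 5.13 and 5.04 at 4 h, with no overlap and a difference of -0.70 (SE 0.18, unadjusted p = 0.000546, adjusted p = 0.187). PCED1A in KO cells had 6.80, 6.39 and 6.36 at 24 h and 7.10, 6.81 and 6.84 at 4 h, a difference of -0.40 (SE 0.12, unadjusted p = 0.00218, adjusted p = 0.302). In parental cells FLRT3 had 6.34, 6.38 and 6.33 at 24 h and 5.78, 5.28 and 5.91 at 4 h, a difference of 0.69 (SE 0.21, unadjusted p = 0.00236, adjusted p = 0.155). SLC23A2 in parental cells had 8.23, 8.15 and 8.19 at 24 h and 7.53, 7.93 and 7.85 at 4 h, a difference of 0.42 (SE 0.14, unadjusted p = 0.00436, adjusted p = 0.212). Under other settings of this comparison 4 genes passed: PCED1A and DDRGK1 in KO cells with the replicate number as a block (adjusted p = 0.0422 and 0.0482), and in parental cells SLC23A2 with array weights (adjusted p = 0.00914) and ZNF343 without replicate 2 at 4 h (adjusted p = 0.0305). The precision sets what could be seen. The half-width of the 95% interval of a difference between 2 groups had a median of 0.31 over the 56 genes (0.14 to 0.50), and that of a difference of responses a median of 0.44 (0.20 to 0.71). These intervals are not adjusted for the number of genes, and some shifts larger than them did not pass, such as that of DDRGK1.

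**Figure D5:**
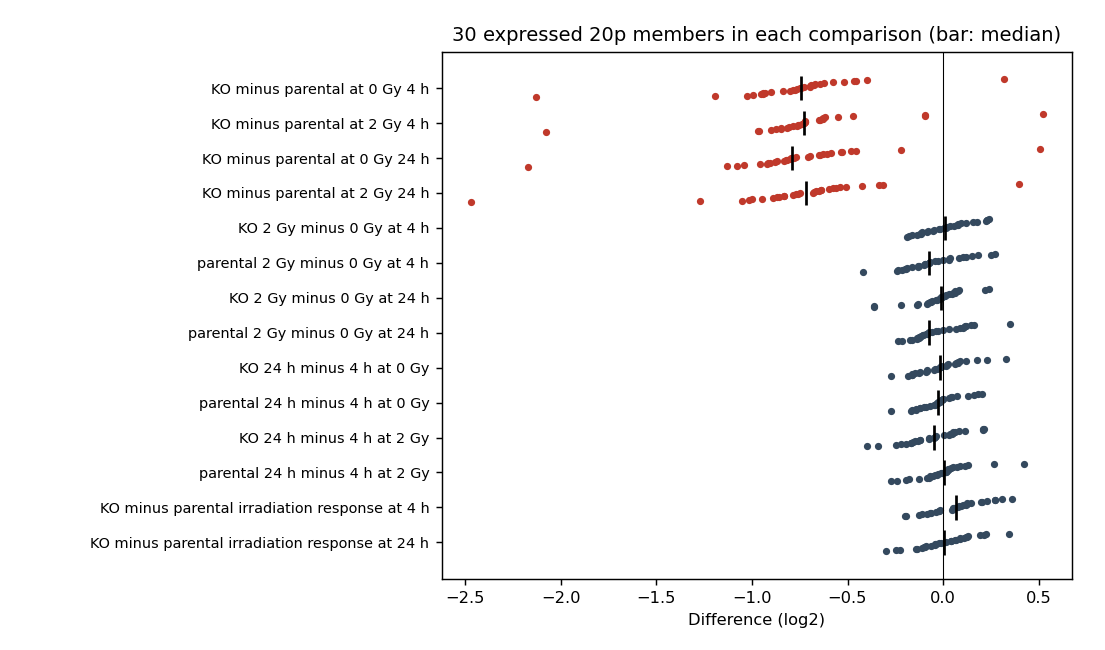
Differences (log2) of the 30 expressed listed genes in the 4 comparisons of the lines (red) and in the 10 comparisons of dose, time and response (blue), with 1 point per gene and a bar at the median. The medians between the lines lie from -0.79 to -0.72, and those of the other comparisons lie from -0.08 to 0.07.

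Genes elsewhere in the genome that code for partners or near relatives of the listed genes were compared between the lines, to place the difference beside the rest of each complex. Of 77 such genes 71 were measured, and 40 passed (56.3%), against 30.4% of all genes. Among the 53 expressed partners 34 passed (64.2%), against 47.3% of all expressed genes. The partner list was chosen with earlier results of these data known, so the excess over these shares is not read as a result. The same shares, 30.4% and 47.3%, apply to the small counts per complex below, and nothing is read from those counts. The 40 went both ways, with 23 higher and 17 lower in KO cells (15.8% and 14.6% of all genes), with a median difference of 0.01 over the 71 and 7 differing by at least 0.5. The median of the expressed listed genes, which were listed for being lower, was -0.74.

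Among the RNA complexes, 3 of 10 Sm and U2 proteins passed, SNRPA1 higher by 0.23 (SE 0.04) and SNRPE and SNRPA lower, at -0.13 (SE 0.03) and -0.10 (SE 0.04). SNRPA1 binds the U2 RNA together with SNRPB2, whose own difference was -0.99. The 3 measured partners of NOP56 in the box C/D particle that methylates ribosomal RNA all fell: NOP58 at -0.22 (SE 0.04), FBL at -0.13 (SE 0.04) and SNU13 at -0.09 (SE 0.03). The calls of SNRPA and SNU13 were lost under some alternatives, with adjusted p-values up to 0.132 and 0.123. The dim TRMT61A, the catalytic partner of TRMT6, averaged 5.08 ± 0.22 in KO cells and 5.55 ± 0.16 in parental cells (SD, n = 12 arrays each), a difference of -0.47 (SE 0.08) with an adjusted p of 1.38e-05. Both subunits that pair with IDH3B rose, IDH3G by 0.19 (SE 0.04) and IDH3A by 0.15 (SE 0.04). Of 4 other complex I assembly factors 2 fell, and NDUFAF6 averaged 6.10 ± 0.19 in KO cells and 6.42 ± 0.35 in parental cells (SD, n = 12 arrays each), a difference of -0.32 (SE 0.09) with an adjusted p of 0.00463. HROB, which works with MCM8 and MCM9, fell by 0.26 on the log2 scale, while MCM9 at -0.07 (SE 0.07) did not pass.

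In membrane traffic, 5 of 6 HOPS and CORVET subunits passed (83.3%), against 47.3% of all expressed genes. VPS11 at 0.32 (SE 0.06), VPS18 at 0.32 (SE 0.08) and VPS39 at 0.17 (SE 0.06) were higher. VPS8 at -0.27 (SE 0.07) and VPS41 at -0.14 (SE 0.05) were lower. The calls of VPS39 and VPS41 were lost under some alternatives, with adjusted p-values up to 0.0925 and 0.084. Of 5 measured partners of the AP-5 adaptor 2 passed (40.0%), against 30.4% of all genes. ZFYVE26 rose by 0.35 (SE 0.06) with an adjusted p of 6.34e-06. The dim AP5Z1 rose by 0.24 (SE 0.09), and its call was lost under some alternatives, with an adjusted p up to 0.0808. AP5B1, AP5M1 and SPG11 did not pass. Of 3 measured synaptic partners of SNAP25, SYT1 and VAMP2 rose, while STX1A at -0.19 (SE 0.07) did not pass (adjusted p = 0.0512). SYT1, a calcium sensor of vesicle fusion, averaged 7.87 ± 0.16 in KO cells and 7.12 ± 0.24 in parental cells (SD, n = 12 arrays each), a difference of 0.76 (SE 0.06) with an adjusted p of 2.55e-12. Its KO and parental arrays did not overlap, and VAMP2 differed by 0.33 (SE 0.07) with an adjusted p of 0.000145.

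CHGA, the relative of CHGB, was higher in KO cells. It averaged 4.97 ± 0.38 in KO cells and 3.47 ± 0.16 in parental cells (SD, n = 12 arrays each), with an adjusted p of 2.76e-13. As 10 of the 12 parental arrays were at background, the size of the difference is not measured. SCG2, another granin, averaged 4.65 ± 0.28 in KO cells and 3.80 ± 0.38 in parental cells (SD, n = 12 arrays each), a difference of 0.85 (SE 0.12) with an adjusted p of 4.96e-07. SCG2 was dim, and 2 of its parental arrays were at background. Among the signalling partners 4 of 5 BMP pathway genes passed (80.0%, against 47.3% of all expressed genes), all higher in KO cells. SMAD6 rose by 0.50 (SE 0.11), ID3 by 0.29 (SE 0.10), BMPR2 by 0.20 (SE 0.07) and ID2 by 0.16 (SE 0.06). ID1 at -0.13 (SE 0.17) did not pass. The calls of ID3 and ID2 were lost under some alternatives, with adjusted p-values up to 0.118 and 0.102. Of 5 Notch receptors and targets 2 passed (40.0%), against 30.4% of all genes. HES1, a Notch target, rose by 0.49 (SE 0.06) with an adjusted p of 1.85e-07, and NOTCH2 fell by 0.22 on the log2 scale, while the target HEY1 at -0.31 (SE 0.18) did not pass (adjusted p = 0.21). The dim CD47, the ligand of SIRPA, differed by -0.30 (SE 0.10) and passed.

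Of 7 partners in the last group, most of them relatives of listed genes, 4 passed (57.1%), with 3 lower and 1 higher in KO cells. SMS, which makes spermine and is not a relative of SMOX, was among the lower ones, at -0.30 (SE 0.04), with no overlap. JAG2, the relative of JAG1, averaged 6.04 ± 0.16 in KO cells and 6.63 ± 0.12 in parental cells (SD, n = 12 arrays each), a difference of -0.60 (SE 0.06) with an adjusted p of 2.74e-09, with no overlap. The dim CDS1, the relative of CDS2, averaged 4.03 ± 0.19 in KO cells and 4.61 ± 0.19 in parental cells (SD, n = 12 arrays each), a difference of -0.58 (SE 0.09) with an adjusted p of 2.8e-06. PANK1, the relative of PANK2, rose, with an average of 7.33 ± 0.09 in KO cells and 6.81 ± 0.10 in parental cells (SD, n = 12 arrays each), a difference of 0.52 (SE 0.05) with an adjusted p of 8.29e-10. PANK3, of the same family, differed by 0.05 (SE 0.05) and did not pass. CSNK2A2, the other catalytic subunit of casein kinase 2, did not pass at -0.04 (SE 0.03).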

How the data were processed

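Total RNA of 24 samples was hybridised to Affymetrix whole-transcript arrays. The authors used RMA and Affymetrix Expression Console 1.1, per the submitters' processing notes, and deposited a log2 signal for each probe set. The sources used here do not give the arrays that RMA normalized together. Of 24351 probe sets, 17709 have a gene symbol, and for 20 genes with several the one with the highest mean was kept, leaving 17687 genes, with no filter on dim ones. Gene order and promoter windows came from RefSeq on GRCh38.p14.

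Differences were fitted in R 4.3.3 with limma 3.58.1 (a mean per group over all 24 arrays, eBayes with an intensity trend) and a gene passed at a limma p, adjusted by Benjamini-Hochberg over all genes, below 0.05. The fit was tested on simulated data. The listed genes, the role groups and the partner list were chosen with earlier results of these data known. Named genes were those with values on every array (the 6 most and 4 least negative expressed listed genes and the 2 nearest to 6), the 2 lowest p-values per test where none passed, up to 12 partners by size, and the 4 lowest and 4 highest unlisted expressed genes. Further partners, PCNA and the genes with promoters shown were named after their values were seen. Arrays carry no read depth, so their number limits the precision.

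Same-numbered replicates deviated together (every correlation of deviations from the group means above 0.1) between the lines at 4 h without irradiation (0.103 to 0.168) and at 24 h after 2 Gy (0.151 to 0.231), and between doses in KO cells at 4 h (0.154 to 0.269) and 24 h (0.134 to 0.237). Alternatives were the replicate block, array weights, no intensity trend, median-centred arrays, other sets of genes or arrays, and leaving out each array.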

Additional observations from a re-analysis of the deposited data

How the results depend on the processing

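Of the alternatives tried, 5 moved a result, and none reversed one. With array weights, 1 listed gene passed between 24 h and 4 h after 2 Gy in parental cells (SLC23A2, adjusted p = 0.00914). With the replicate block, 2 passed in the same comparison in KO cells, where same-numbered samples did not deviate together (PCED1A, adjusted p = 0.0422, and DDRGK1, adjusted p = 0.0482). The block changed no other call among the listed genes. With dim genes included, the median difference at 24 h without irradiation was -0.70 in place of -0.79. Leaving out each array in turn, the number of listed genes passing was 0 throughout, except 0 to 1 between times after 2 Gy in parental cells, where ZNF343 passed (adjusted p = 0.0305) without replicate 2 at 4 h. The medians between the lines ran from -0.77 to -0.72 at 4 h without irradiation, -0.79 to -0.65 at 4 h after 2 Gy, -0.81 to -0.71 at 24 h without irradiation, -0.75 to -0.67 at 24 h after 2 Gy and -0.75 to -0.72 over all. The partners passing numbered 34 to 40, and 34 to 44 over all settings. Without both narrow parental arrays (replicate 2 after 2 Gy) 34 partners and 0 listed genes passed, and the medians after 2 Gy were -0.77 at 4 h and -0.75 at 24 h. Centring each array on its median gave -0.71 over all conditions. The cause of these moves was not tested.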
